A study of Mus musculus with 2 samples.

Results

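Luminal progenitors are the milk-lineage cells of the inner layer of the mammary epithelium. The cells described here are the progenitor-type luminal cells with the highest Csn3 and Ceacam1 relative to Ltf and its companions: 587 of 8909 filtered mouse mammary cells, 219 of 3416 in the control library (Ctrl) and 368 of 5493 in the knockout library (cKO). They were chosen on measured values in 2 steps. A gate on unique molecular identifiers (UMIs) per 10000 of a cell's total asked for Krt18 of at least 50, Prlr under 2 and Wfdc18, Csn3 and Aldh1a3 of at least 10 together. It passed 659 Ctrl and 1106 cKO cells. A score then took the mean log level of Ltf, Tnfaip2, Klk10, Fcgbp, Muc1 and Plb1 minus that of Csn3, Ceacam1, Aldh1a3, Car2, Fam107b and Trf, and the 1 in 3 cells with the lowest score in each library were kept. The 1 in 3 with the highest score, 219 and 368 cells with high Ltf, are the high-score cells below.

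The study measured messenger RNA in single mammary cells to ask how the microRNAs miR-200c and miR-141 bear on estrogen receptor expression and on Ccnd1. Ctrl mice were miR-200c/141-flox/flox, with both copies of the locus flanked by loxP sites and no Cre named, and cKO mice were K8-CreERT2;miR-200c/141-flox/flox, so that Cre is driven by the promoter of keratin 8, a keratin of luminal cells. All were C57BL/6 and received tamoxifen at 8 to 10 weeks, glands were taken 4 weeks later, and the cells were sorted by FACS before capture. An age of 8 weeks also stands in the labels, and the number of mice behind each library is not stated there. Each group is 1 library, so there are no replicates, no test between groups was possible, and every interval below covers counting error only. Neither microRNA is a feature of the count matrices, so the deletion could not be checked in these cells.

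The adult gland has an outer basal layer and an inner luminal layer. The luminal layer holds hormone-sensing cells, which carry receptors for estrogen, progesterone and prolactin, and progenitor cells, which largely lack those receptors and give rise to milk-producing alveolar cells in pregnancy. Progenitors are known for Kit, Elf5, Cd14 and Aldh1a3, for low levels of milk protein genes before pregnancy, and for innate defence products such as lactoferrin. MicroRNAs of the miR-200 family, abundant in epithelium, lower the output of messenger RNAs whose untranslated end pairs with the seed, bases 2 to 8 of the microRNA.

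The 2 mature microRNAs of the deleted locus are shown because the cKO library is defined by their loss, with the seed in capitals. They lie on the minus strand of chromosome 6 (RefSeq, GRCm38.p6), miR-200c-3p at chr6:124718324-124718346 and miR-141-3p at chr6:124717917-124717938. Their seeds are not identical, so they are given as separate groups.
miR-200c-3p: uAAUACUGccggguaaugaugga
miR-141-3p: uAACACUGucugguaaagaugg

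The untranslated 3′ end of an annotated protein-coding transcript of Ccnd1, 2676 bases, held 0 matches to the miR-200c seed and 1 to the miR-141 seed, at base 950. The site is printed with the match in capitals because the study's title names Ccnd1 as the target. It lies on the minus strand at chr7:144931640-144931668 (GRCm38).
Ccnd1 site: ctagctggaggCAGTGTTgctggtgtgtg

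The members held 5586036 UMIs in Ctrl and 5596870 in cKO, with a median per cell of 20685 UMIs and 3904 genes in Ctrl and 13278.5 UMIs and 2951.5 genes in cKO. Levels below are therefore UMIs per 1000000 of the summed cells (CPM), and shares of cells are given after each cell was thinned to 2000 UMIs, which left out 2 and 1 members. Depth did not separate the ends of the score, since the high-score cells had medians of 20549 and 13028.5 UMIs. The score runs without a gap, as the distribution of the score by library shows. The last member scored -1.32 in Ctrl and -1.13 in cKO, and the first cell outside -1.32 and -1.13. Within 0.1 of that limit lay 26 members and 27 other cells in Ctrl, and 40 members and 37 others in cKO, so the group is a range along a gradient and not a separate cluster. The 10 members nearest the limit had a median of 8.34 Csn3 UMIs per 10000 in Ctrl and 1.11 in cKO, and the 10 cells just outside 10.95 and 1.61.

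**Figure D1:**
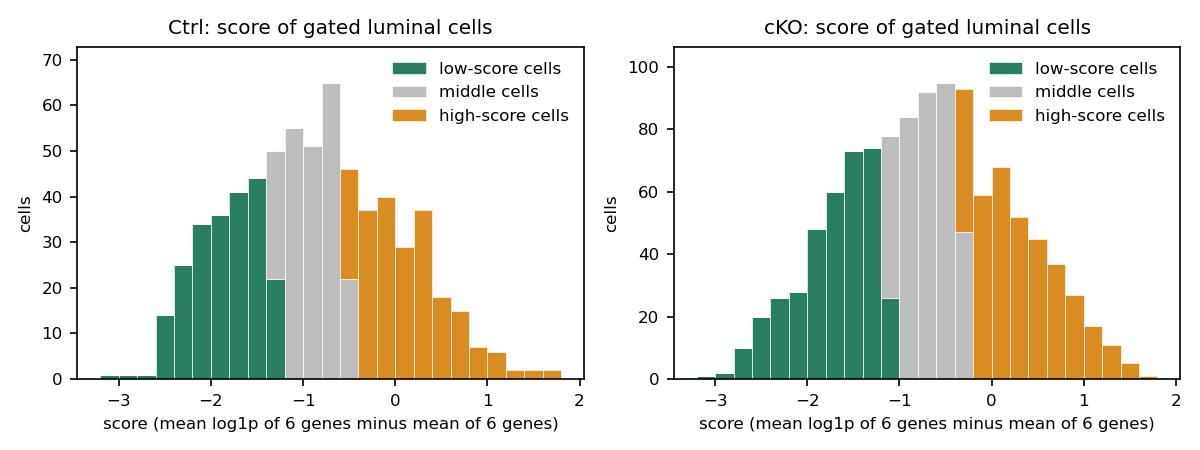
Number of gated luminal cells (y axis) by score (x axis, mean log level of 6 genes minus mean of 6 others) in Ctrl and cKO, stacked and coloured as the lowest, middle and highest 1 in 3 cells. The distribution is continuous across the upper limit of the members at -1.32 in Ctrl and -1.13 in cKO.

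Csn3, which encodes kappa-casein, the casein that stabilises milk micelles, had 1842 CPM (95% Poisson interval 1806 to 1877) in the Ctrl members and 1428 (1397 to 1460) in the cKO members. The high-score cells held 305 and 115 CPM, and cells gated for Prlr, the hormone-sensing kind, 50.1 and 36.6 CPM. Csn3 varied widely among members, with a median of 13.9 per 10000 in Ctrl, 3.32 at the 10th percentile and 47.4 at the 90th, and with 10.9, 0 and 32.2 in cKO. Thinned to 2000 UMIs, 84.3% of members held a Csn3 UMI in Ctrl (95% Clopper-Pearson interval 78.8 to 88.9) and 70.3% in cKO (65.3 to 74.9). Cells gated for the basal keratins Krt5 and Krt14, which should lack Csn3, gave 1.56% and 0.641% after the same thinning, at median depths of 10380.5 and 7337 UMIs. Without thinning the member shares were 97.3% and 86.4%, against 5.23% and 3.52% of basal cells. Csn3 entered both the gate and the score, so these values describe how the cells were chosen.

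Ceacam1, which encodes an adhesion receptor of epithelial surfaces, had 729 CPM (707 to 752) in Ctrl members and 988 (962 to 1014) in cKO members, against 222 and 245 CPM in the high-score cells and 77.9 and 87.7 CPM in Prlr-gated cells. After thinning, 66.8% and 74.4% of members held a Ceacam1 UMI, and 0.585% and 0.321% of basal cells. Aldh1a3, which encodes the retinaldehyde dehydrogenase behind much of the aldehyde dehydrogenase activity used to sort progenitors, stood at 2406 CPM (2365 to 2447) and 2858 CPM (2814 to 2902), against 922 and 1271 CPM in the high-score cells. Its thinned shares were 88.0% and 85.3% of members, 5.94% and 6.06% of Prlr-gated cells and 2.05% and 4.59% of basal cells. Car2, which encodes a carbonic anhydrase, stood at 419 and 471 CPM, against 126 and 133 CPM in the high-score cells, and Fam107b at 470 and 760 CPM against 105.6 and 155.8 CPM. All these genes entered the score. Trf, the sixth gene of that side, which encodes the iron carrier transferrin, had 3113 CPM in Ctrl members and 1144 in cKO members, against 1347 and 310 CPM in the high-score cells.

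Wnt5b and Plet1 are named as markers of this state but did not enter the gate or the score. Wnt5b, which encodes a secreted ligand of non-canonical Wnt signalling, had 265 CPM (251 to 279) in Ctrl members and 214 (202 to 227) in cKO members, and 133 and 123 CPM in the high-score cells, so it followed the score in both libraries. Its level was 19.5 and 17.3 CPM in Prlr-gated cells and 29.7 and 42.3 CPM in basal cells. Plet1, which encodes a surface protein of placenta and progenitor epithelia, stood at 4974 CPM (4916 to 5033) and 4270 CPM (4216 to 4324) in members and at 3710 and 3720 CPM in the high-score cells. The log2 differences of Plet1 between the ends of the score, 0.42 in Ctrl and 0.20 in cKO, lie below 1.5-fold. Plet1 therefore marks the whole progenitor gate against Prlr-gated cells, at 654 and 585 CPM, more than it marks this end of it. Both genes come from the same cells as the score, so these differences carry no test.

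The label of luminal progenitor was checked against 12 genes of that cell type, 3 of which set the gate. Summed, they stood at 7990 CPM in Ctrl members and 7951 in cKO members, against 777 and 464 CPM in Prlr-gated and 602 and 268 CPM in basal cells. The 3 gate genes made up 5667 and 6825 CPM of the member sums, which the gate fixed in part. The other 9 genes summed to 2324 and 1126 CPM in the members, against 530 and 262 CPM in Prlr-gated and 539 and 193 CPM in basal cells. The high-score cells had more of all 12, at 10256 and 12700 CPM, and of the 9, at 3634 and 2209 CPM. Elf5, which encodes the transcription factor of the alveolar lineage, had 33.1 and 22.3 CPM in members, against 61.8 and 34.5 CPM in the high-score cells and 6.16 and 6.01 CPM in Prlr-gated cells. Kit, the stem cell factor receptor gene used to sort progenitors, had 5.37 and 6.25 CPM, against 18.5 and 14.9 CPM in the high-score cells and 1.57 and 1.62 CPM in Prlr-gated cells. Cd14, which encodes a co-receptor for bacterial lipopolysaccharide, had 254 and 188 CPM. The milk fat globule gene Mfge8 made up most of the member sums of the 9, at 1656 and 676 CPM. In endothelial cells, gated for Pecam1, Cdh5 and Emcn, Mfge8 stood at 1728 and 830 CPM. All 12 genes summed to 2194 and 1212 CPM there. The 9 progenitor genes outside the gate thus summed higher in the members than in the Prlr-gated and basal cells. Their sum rests mostly on Mfge8 and does not set the members apart from endothelial cells. Kit and Elf5 were lower in the members than at the other end of the score.

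**Figure D2:**
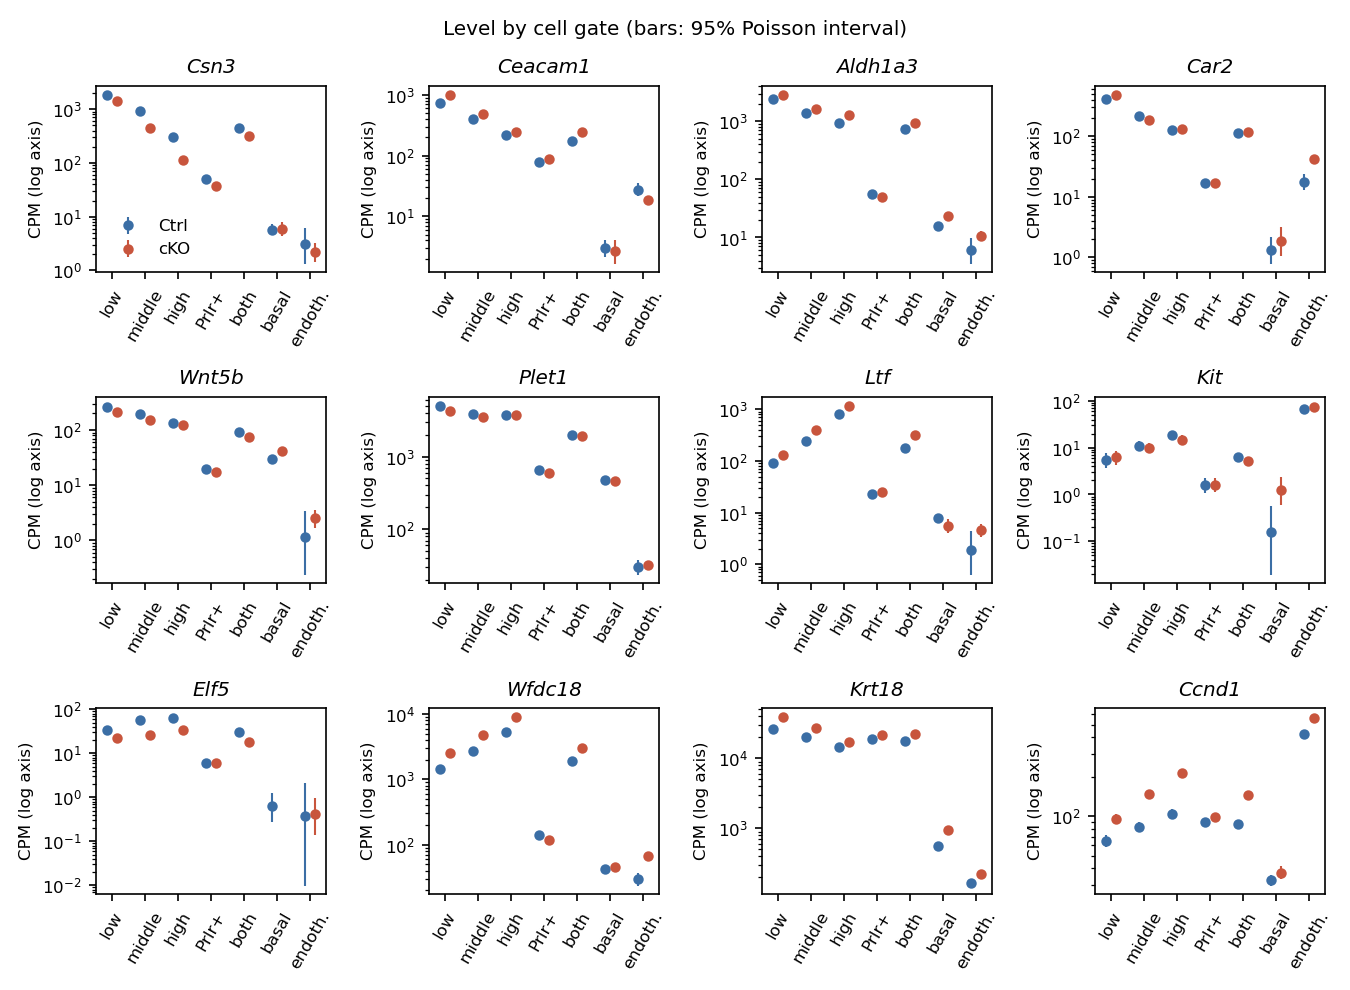
Level in CPM (y axes, log scale) of 12 genes in the low-score, middle and high-score cells, in Prlr-gated cells (Prlr+), in cells with both luminal programs (both), in basal and in endothelial cells (x axes) of each library, with 95% Poisson intervals. Csn3 falls from 1842 and 1428 CPM in the members to 305 and 115 CPM in the high-score cells, while Kit rises from 5.37 and 6.25 to 18.5 and 14.9 CPM; Elf5 in basal cells of cKO, at 0 UMIs, cannot be drawn.

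Markers of other cell types were low in the members but not all at 0. Prlr, which the gate limits, still gave a UMI in 67 members of Ctrl (30.6%) and 112 of cKO (30.4%). The 10 hormone-sensing genes summed to 362 and 729 CPM, against 9086 and 9452 CPM in Prlr-gated cells. Of that list Areg, which encodes amphiregulin, made up 168 and 469 CPM and the surface antigen gene Ly6a 64.6 and 147 CPM, and Tnfsf11 was at 0. The 12 basal genes summed to 410 and 457 CPM, against 21606 and 24323 CPM in basal cells, and 3 members of each library reached 20 per 10000 of Krt5 and Krt14. Krt17 made up the largest part of these sums, at 164 and 244 CPM in 81 and 117 members, against 5171 and 4030 CPM in basal cells. The 5% of members with the most Krt17 UMIs held 62.55% and 57.03% of them. Of the smooth-muscle gene Acta2, 1 cell held 44.2% of the Ctrl UMIs and 1 cell 73.4% of the cKO UMIs.

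Endothelial, fibroblast, myeloid and lymphoid lists were near 0. The 6 endothelial genes summed to 1.97 and 7.50 CPM, with Cdh5 and Kdr at 0 in Ctrl. Among the fibroblast genes Col1a1 and Lum were at 0 in both libraries, and Dcn had 138 and 40 UMIs. Ptprc, the pan-leukocyte gene, was at 0 in both libraries. Cd68 made up most of the myeloid sum of 16.3 and 17.7 CPM, while Csf1r and Adgre1 were at 0. Scrublet called 2 members of each library as doublets, and 27 of all Ctrl cells (0.790%) and 55 of all cKO cells (1.001%). Cells passing the Krt18 gate with both Prlr and progenitor genes, which are not members, had medians of 48305.5 and 28148.5 UMIs. Both libraries shared 6 cell barcodes, of which 3 were a member in one of them and 0 in both.

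Along the score, Cald1, Cyr61 and Dusp5 were among the genes higher at the Csn3-Ceacam1-high end, and Icam1, Crip1 and most tested chemokine and cytokine genes were higher at the Ltf-high end. Of 9882 genes with at least 20 UMIs in the 2 ends of the score in each library, 385 (3.9%) were at least 1.5-fold higher in the members than in the high-score cells in both libraries and 1405 (14.2%) at least 1.5-fold lower. With trimmed mean scaling, which added 0.14 in Ctrl and 0.16 in cKO to each log2 difference, these counts were 651 and 1003, so that the higher share of the called genes went from 21.5% to 39.4%. Of the 730 genes higher in Ctrl, 52.7% were also higher in cKO, which is 50.7% of the 759 there. Of the 1994 lower in Ctrl, 70.5% were also lower in cKO, or 58.4% of the 2404 there. All of these values come from the cells that were ranked by the score, so they are a description and no test was made. Counts for gene lists along the score are to be set beside the shares of all tested genes, 3.9% higher and 14.2% lower. A list with counts near those shares has no direction of its own.

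Of the 12 genes that stood out most at the member end, 3 encode parts of the cytoskeleton. Cald1, which encodes the actin-binding protein caldesmon, had 342 CPM (327 to 358) in Ctrl members and 381 (365 to 397) in cKO members, and 57.0 and 64.4 CPM in the high-score cells, log2 differences of 2.59 and 2.56. Its levels in the 2 libraries were alike at both ends. Nes, which encodes the intermediate filament nestin, stood at 19.7 and 20.9 CPM against 3.35 and 3.92 CPM, and Krt80, which encodes an epithelial keratin, at 41.0 and 48.8 CPM against 9.89 and 9.32 CPM. Cald1 reached 781 and 656 CPM in basal cells, where it belongs to the contractile program, whereas the basal genes as a list had 1 of 10 tested members higher and 1 lower along the score.

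Others of the 12 encode secreted factors and signalling proteins. Cyr61, which encodes the matrix protein CCN1 and is a textbook target of the Hippo effectors YAP and TEAD, had 630 CPM (609 to 651) in Ctrl members and 673 (652 to 695) in cKO members, against 134 and 111 CPM in the high-score cells. Hbegf, which encodes a membrane-bound ligand of the EGF receptor, stood at 270 and 319 CPM against 73.4 and 82.2 CPM. Dusp5, which encodes a phosphatase that switches off nuclear ERK, stood at 225 and 211 CPM against 44.3 and 41.4 CPM. Fhl2, which encodes a LIM-domain cofactor, stood at 214 and 221 CPM against 58.4 and 45.9 CPM. The RNA-binding protein genes Khdrbs3, at 91.5 and 71.8 CPM against 15.9 and 13.7 CPM, and Samd4, at 36.7 and 39.3 CPM against 7.24 and 8.99 CPM, complete this set.

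F3, which encodes tissue factor, the trigger of coagulation, had 861 CPM in Ctrl members and 1573 in cKO members, against 198 and 389 CPM in the high-score cells, so it followed the score in each library and was higher in cKO at both ends. It is no mark of these cells alone, since Prlr-gated cells held 1769 and 4018 CPM. Plin2, which encodes the coat protein of lipid droplets, stood at 310 and 196 CPM against 66.6 and 51.3 CPM. Spp1, which encodes the secreted phosphoprotein osteopontin, stood at 394 and 211 CPM against 52.6 and 45.1 CPM, but 1 cell held 21.1% of its UMIs in Ctrl and 36.4% in cKO, and 52 and 39 members held any. The Spp1 level therefore belongs to a few members, unlike Cyr61, which was found in 194 and 299 of them, and Cald1, in 167 and 279.

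The promoter of Cyr61 (RefSeq Ccn1, 250 bases before to 50 after the start) is printed because the gene marks the member end and because its window holds a match to the TEAD core. The motif searched was GGAATG on both strands, and the match, in capitals, starts 103 bases before the start of the gene. The window is chr3:145649936-145650235 on the minus strand of GRCm38.p6.
Cyr61 promoter: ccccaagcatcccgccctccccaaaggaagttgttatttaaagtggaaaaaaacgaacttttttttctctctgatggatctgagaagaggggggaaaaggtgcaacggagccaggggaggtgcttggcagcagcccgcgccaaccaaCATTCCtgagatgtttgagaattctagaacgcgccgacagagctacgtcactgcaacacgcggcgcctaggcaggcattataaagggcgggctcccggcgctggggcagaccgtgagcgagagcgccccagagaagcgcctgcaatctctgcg

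Of the 12 genes highest at the member end, 9 were found in the RefSeq promoter table, with 13 promoters. Of these 13, 3 held GGAATG (23.1%), 1 each of Cald1, Cyr61 and Samd4, against 14.7% of all 32851 promoters of this length. Of the 12 lowest, 9 were found, with 11 promoters, and 1 promoter (9.09%), that of Hsd17b11, held it. A second motif, GGAANTTCC, the core bound by NF-kB, occurred in 0.928% of all promoters, in 0 of the 13 promoters of the higher genes and in 1 of the 11 of the lower genes, that of Icam1. Icam1 encodes a leukocyte adhesion molecule and its window is printed for contrast, at chr9:21015690-21015989 on the plus strand of GRCm38.p6, with the match in capitals 153 bases before the start. These matches describe letters and not bound sites.
Icam1 promoter: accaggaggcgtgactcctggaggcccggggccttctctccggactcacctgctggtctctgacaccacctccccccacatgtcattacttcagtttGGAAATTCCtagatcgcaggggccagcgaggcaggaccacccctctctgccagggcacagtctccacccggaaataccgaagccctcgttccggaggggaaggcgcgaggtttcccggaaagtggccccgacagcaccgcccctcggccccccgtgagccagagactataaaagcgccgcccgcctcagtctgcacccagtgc

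**Figure D3:**
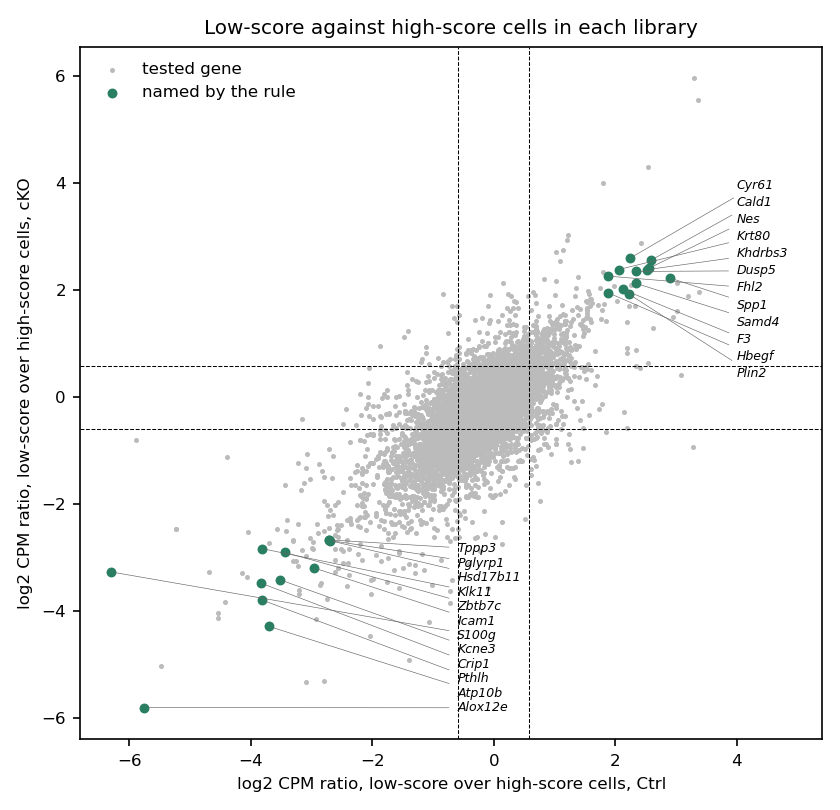
Log2 CPM difference, members over high-score cells, in Ctrl (x axis) and cKO (y axis) for 9882 genes, with the 24 genes named by size in green and dashed lines at 1.5-fold. Cald1 lies at 2.59 and 2.56 and Alox12e at -5.75 and -5.80; the named genes lie on the same side of 0 in both libraries, as the rule that chose them requires.

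Icam1, Alox12e, Pthlh and Crip1 were among the 12 genes that stood lowest in the members against the high-score cells. Icam1 had 27.4 CPM in Ctrl members and 23.6 in cKO members, against 212 and 216 CPM in the high-score cells. Alox12e, which encodes an epidermal lipoxygenase, had 4 and 12 UMIs in the members, or 0.716 and 2.14 CPM, against 38.5 and 119.6 CPM. Pthlh, which encodes parathyroid hormone-related protein, the calcium-mobilising hormone of the lactating gland, had 13 and 15 UMIs, or 2.33 and 2.68 CPM, against 32.7 and 37.1 CPM. S100g, which encodes the calcium-binding protein calbindin-D9k, had 5 and 79 UMIs in the members, and 8 cells held all of the latter. Crip1, which encodes a LIM-domain protein, was the most abundant of this set, at 106.9 and 196.2 CPM against 1518 and 2182 CPM. Pglyrp1, which encodes a peptidoglycan-binding defence protein, stood at 6.45 and 8.40 CPM against 42.4 and 53.6 CPM, and the kallikrein protease gene Klk11 at 1.97 and 2.32 CPM against 27.7 and 16.5 CPM.

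Atp10b, Kcne3, Zbtb7c, Hsd17b11 and Tppp3, which encode a flippase, a potassium channel subunit, a zinc finger protein, a steroid dehydrogenase family member and a tubulin-binding protein, complete the 12. Their log2 differences between the ends of the score ranged from -3.70 to -2.70 in Ctrl and from -4.28 to -2.67 in cKO. Icam1 rose along all 6 score bins, from 21.9 CPM in the lowest to 289.8 CPM in the highest in Ctrl and from 11.8 to 288.7 CPM in cKO.

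**Figure D4:**
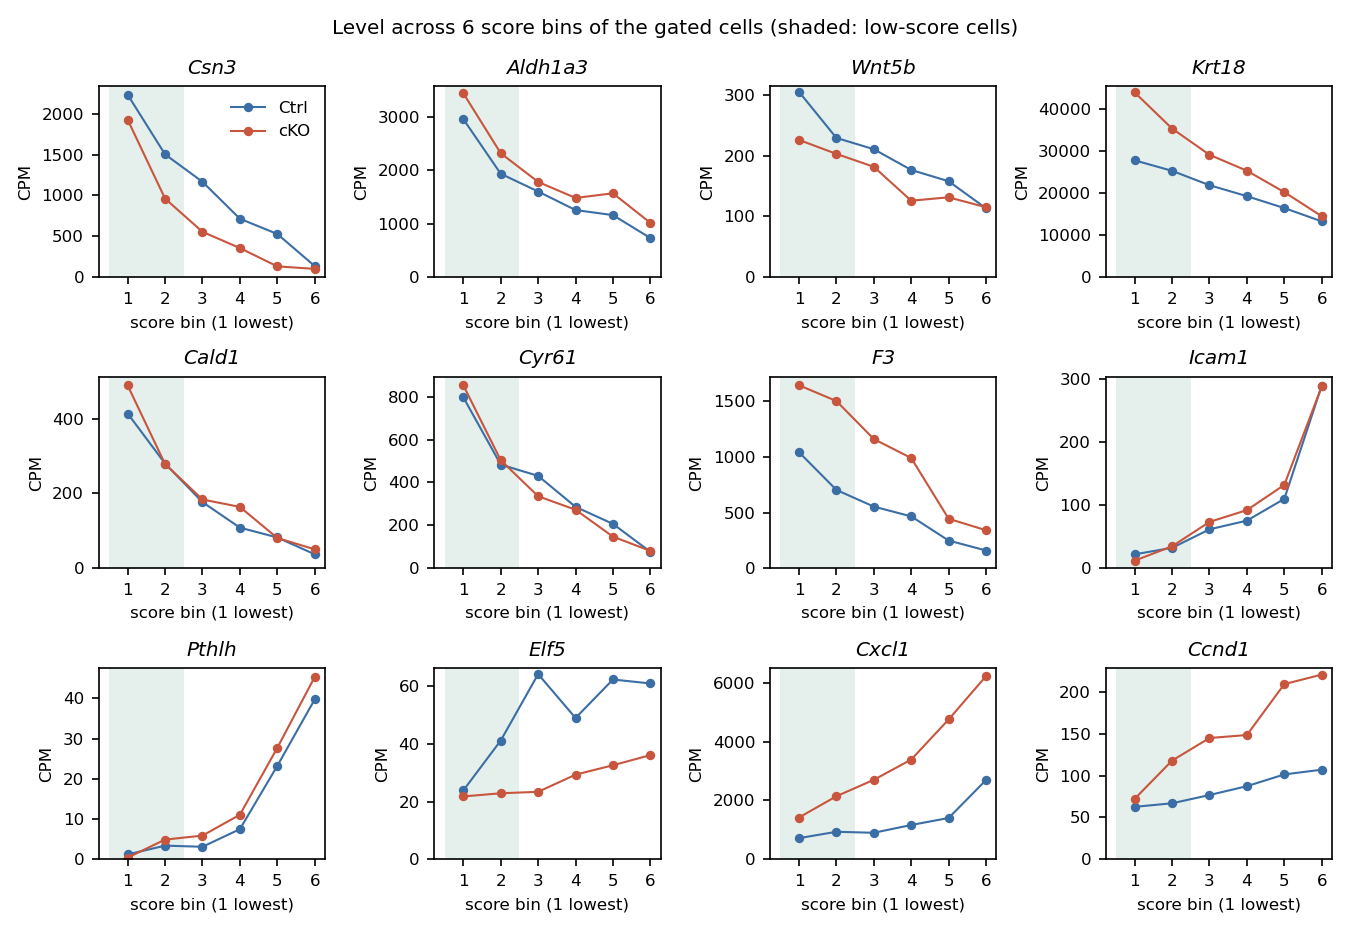
Level in CPM (y axes) of 12 genes across 6 bins of the score (x axes, bin 1 lowest), for Ctrl and cKO; the shaded bins 1 and 2 are the members. Cald1 and Cyr61 fall and Icam1 and Cxcl1 rise along the score in both libraries, while Ccnd1 starts at 62.7 and 72.3 CPM and ends at 107.3 and 221.4 CPM.

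Chemokine and cytokine genes were lower in the members than at the other end. Of 15 tested members of this list, 0 were higher and 11 lower by 1.5-fold in both libraries, with median log2 differences of -1.36 in Ctrl and -1.26 in cKO, against medians of -0.13 and -0.16 for all genes. Cxcl1, a neutrophil attractant gene, stood at 830 and 1791 CPM against 2135 and 5548 CPM in the high-score cells, and Cxcl5, of the same family, at 92.6 and 32.7 CPM against 496 and 377 CPM. Il1rn, which encodes the natural blocker of interleukin-1, stood at 16.5 and 9.29 CPM against 71.0 and 34.3 CPM. Lif, which encodes a cytokine of the interleukin-6 family, was a member of the list that did not pass, at 106.5 and 135.8 CPM against 108.2 and 186.5 CPM. Antigen presentation genes went the same way, with 0 of 10 higher and 5 lower, the peptide transporter genes Tap1 and Tap2 and the genes Tapbp, Psmb8 and Psmb9. Tap1 stood at 9.31 and 10.9 CPM against 42.2 and 39.2 CPM.

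Of 13 tested interferon-stimulated genes, 0 were higher and 5 lower in the members, among them Rtp4, Oasl2, Usp18 and Zbp1. Rtp4 stood at 10.9 and 14.3 CPM against 22.2 and 69.1 CPM. The list's median log2 difference was -0.49 in Ctrl and -1.50 in cKO, and whether these differ was not tested. Innate defence genes other than Ltf went both ways, with 2 of 11 higher and 3 lower. The fibrinogen chain genes Fgb and Fgg were higher, Fgb at 66.95 and 227 CPM against 8.30 and 74.7 CPM. Few members carried Fgb, 27 in Ctrl and 79 in cKO, and the 5% of members with the most held 95.7% and 92.9% of its UMIs. Prlr-gated cells held 1476 and 1949 CPM of Fgb, and the part of their RNA in the members was not tested. S100a8, Pigr and Wfdc12 were lower. Lcn2, which encodes the iron-siderophore trap lipocalin-2, was abundant and level, at 7063 and 6858 CPM against 7739 and 7601 CPM.

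Among 9 tested luminal progenitor genes outside the gate, 0 were higher and 6 lower at the member end, Kit, Elf5, Ehf, Rspo1, Mfge8 and Tspan8, or 4 with trimmed mean scaling. Rspo1, which encodes an amplifier of Wnt signalling, stood at 17.7 and 5.90 CPM against 99.04 and 43.3 CPM. Ehf, which encodes an epithelial ETS factor, stood at 107.4 and 69.7 CPM against 255.4 and 156.7 CPM. Of 23 lineage transcription factor genes, 2 were higher, Sox9 and Creb5, and 9 lower. Sox9, which encodes a factor of luminal progenitors and ducts, stood at 417 and 442 CPM against 188 and 282 CPM, and Creb5 at 103.1 and 122.7 CPM against 45.7 and 61.5 CPM. Sox10 stood at 12.2 and 11.6 CPM against 40.6 and 38.1 CPM, Stat5a, which encodes the effector of prolactin signalling, at 8.06 and 5.72 CPM against 21.2 and 23.5 CPM, and Gata3 at 69.8 and 54.1 CPM against 140.5 and 109.5 CPM.

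Most Wnt pathway genes that passed 1.5-fold went against Wnt5b. Of 17 tested, 1 was higher in the members, Wnt5b itself, and 9 were lower, or 7 with trimmed mean scaling. The lower ones were the ligand genes Wnt4, Wnt5a and Wnt7b, Rspo1, the receptor genes Fzd3, Fzd7, Lrp5 and Lgr6 and Porcn, which encodes the acyltransferase of Wnt ligands. Wnt7b stood at 26.1 and 20.7 CPM against 57.2 and 53.1 CPM. Of the receptors of non-canonical signalling, Ryk stood at 66.6 and 63.1 CPM against 72.9 and 69.0 CPM, and Ror1 and Ror2 had at most 6 UMIs in the members. Axin2, the standard reporter of canonical signalling, was at 0 in the members of both libraries. It was scarce in basal cells too, at 1.813 and 1.645 CPM, so it gives no measure of canonical output in the members.

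Among Notch pathway genes, 0 of 8 were higher and 2 lower, the ligand gene Jag1 and Rbpj, which encodes the DNA-binding partner of Notch. Of all tested genes 3.9% were higher and 14.2% lower, so these few genes give the list no direction of its own. Hes1, a target gene, stood at 255 and 221 CPM against 396 and 323 CPM. Of junction and adhesion genes, 3 of 14 were higher, Cdh1, Cldn1 and Cldn4, and 0 lower. Cdh1, which encodes E-cadherin, stood at 226.5 and 219.8 CPM against 122.5 and 119.8 CPM, and Cldn4, which encodes a claudin of tight junctions, at 905 and 1462 CPM against 597 and 755 CPM. Of 9 tested keratin genes 2 were higher, Krt7 and Krt8, and 3 lower, Krt15, Krt19 and Krt23. Krt8 stood at 9351 and 7843 CPM against 5263 and 3593 CPM, and Krt19 at 1310 and 760 CPM against 2768 and 1458 CPM.

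Of the milk genes outside the gate and score, 2 of 8 were higher in the members, Spp1 and the folate receptor gene Folr1, and 4 lower, or 2 lower with trimmed mean scaling. Folr1 stood at 72.5 and 76.1 CPM against 33.9 and 26.6 CPM. Mfge8, which encodes a milk fat globule protein, stood at 1656 and 676 CPM against 2659 and 1436 CPM, and Lalba, which encodes alpha-lactalbumin, had 20 and 8 UMIs. The main casein genes were scarce. All 53 Csn2 UMIs of the Ctrl members lay in 1 cell and the 51 of Csn1s1 in 9 cells, cKO members had 1 UMI of each, and Wap had 2 and 0 UMIs, so Csn3 was abundant without the other caseins.

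Of 10 EGF family genes 2 were higher, Hbegf and Areg, and 2 lower, Nrg1 and the receptor gene Erbb3. Areg stood at 168 and 469 CPM against 82.1 and 171 CPM in the high-score cells, while Prlr-gated cells held 2501 and 4575 CPM. The receptor gene Egfr stood at 41.7 and 26.98 CPM against 35.1 and 31.7 CPM. Of 17 lipid and sterol synthesis genes, 3 were higher and 4 lower. Sqle, which encodes a sterol synthesis enzyme, stood at 53.4 and 62.2 CPM against 32.5 and 32.4 CPM. Fasn, which encodes fatty acid synthase, stood at 8.06 and 5.003 CPM against 6.89 and 4.90 CPM. Apart from Aldh1a3, the aldehyde and retinoid genes had 0 of 9 higher and 2 lower, with Aldh1a1 and Aldh1a2 at no more than 2 UMIs and Aldh2 at 125 and 124 CPM against 118 and 130 CPM.

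Division genes were rare in the members. The 10 mitotic genes summed to 30 UMIs in Ctrl and 95 in cKO, or 5.37 and 17.0 CPM, against 16.6 and 150.7 CPM in the high-score cells. Mki67, a marker of cycling cells, had 3 and 13 UMIs. These sums rest on few cells, since in the cKO members 1 cell held 76.9% of the Mki67 UMIs, 61.1% of those of Top2a and 75% of those of Birc5. Among D cyclins and their partners 0 of 9 were higher and 4 lower in the members, or 3 with trimmed mean scaling: Ccnd1, Cdk6, Cdkn1b and Cdkn2b. Cdkn1a, which encodes the kinase inhibitor p21, stood at 445 and 522 CPM against 346 and 406 CPM.

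Between the libraries, the members of cKO had higher levels of Cxcl1, Cxcl2, Tnf and Areg, and lower levels of Cst3, Trf, Mfge8 and Rspo1. Of 9907 genes with at least 20 UMIs, 575 (5.8%) were at least 1.5-fold higher in cKO members and 1632 (16.5%) at least 1.5-fold lower. The median log2 ratio of all these genes was -0.13. Trimmed mean scaling added 0.13 to each ratio and gave 875 higher and 1121 lower, so that the share of higher among called genes went from 26.1% to 43.8%. Ratios near 0 therefore have no direction here. Counts for gene lists between the libraries are to be set beside the shares of all tested genes, 5.8% higher and 16.5% lower. A list with counts near those shares has no direction of its own. For some genes the ratio or level is also given in high-score, Prlr-gated or basal cells. Those comparisons use the same 2 libraries and show how far a difference runs through them. A gene given for the members alone is not thereby particular to them.

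Some of the 12 genes with the highest ratios were higher in every gate. Rpgrip1, which encodes a ciliary protein, had 4 UMIs in Ctrl members and 140 in cKO members, 0.716 and 25.01 CPM, a ratio of 34.9 (95% counting interval 13.3 to 130.0). The log2 ratio of Rpgrip1 was 5.13 in the members, 5.84 in the high-score cells and 5.56 in Prlr-gated cells, and at least 7.26 in basal cells, where Ctrl had 0 UMIs. Gpc6, which encodes the cell surface proteoglycan glypican-6, stood at 4.48 and 31.98 CPM, spread over 23 and 122 members, with a log2 ratio of 2.84 in the members, 2.29 in the high-score cells and -0.74 in basal cells. Prlr-gated cells held little Gpc6, at 0.703 and 2.31 CPM. Fst, which encodes the activin blocker follistatin, stood at 6.62 and 49.0 CPM, but 1 cell held 51.4% of its Ctrl UMIs and basal cells held 1485 and 3249 CPM.

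Most of the others were more abundant in other cells of these libraries. Of the 12, 9 stood higher in Prlr-gated than in member cells of cKO. Ptn, which encodes the growth factor pleiotrophin, stood at 106.2 and 440.2 CPM in members and at 2726 and 9395 CPM in Prlr-gated cells. Ido1, an enzyme gene of tryptophan breakdown, stood at 1.07 and 23.9 CPM against 10.7 and 428 CPM in those cells, with all 6 of its Ctrl UMIs in 1 member. Upk3a, Fam25c, Fxyd2, Gipc2 and Kif5c followed the same order, with log2 ratios of 2.03 to 4.19 in the members and 1.38 to 3.004 in Prlr-gated cells. Prss23 stood at 5.37 and 20.4 CPM in members and at 1026 and 916 CPM in endothelial cells. Glycam1, a mucin-like gene of milk and of high endothelial venules, stood at 26.9 and 145.6 CPM in members against 121350 and 116364 CPM in cells gated for Pecam1, Cdh5 and Emcn. It also stood at 28.4 and 1720 CPM in basal cells. Endothelial cells were 111 of the Ctrl and 514 of the cKO cells, and the part of RNA from other cells in these ratios was not tested.

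**Figure D5:**
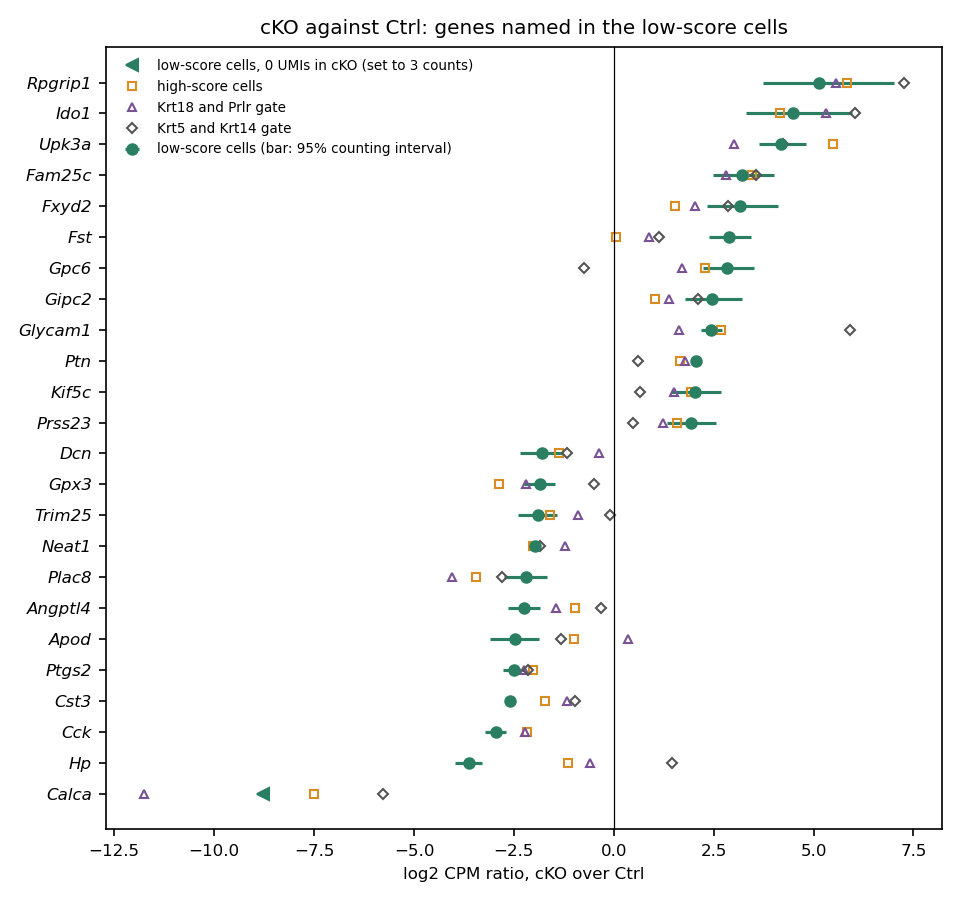
Log2 CPM ratio, cKO over Ctrl (x axis), of the 12 genes with the highest and the 12 with the lowest ratio in the members (green, with 95% counting interval), beside the high-score cells, Prlr-gated and basal cells. Rpgrip1 and Neat1 keep their side in all 4 gates, whereas Hp is below 0 in the members and above 0 in basal cells; a gate with 0 UMIs in 1 library is drawn at 3 counts, and points with 3 or fewer UMIs in both libraries are not drawn.

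Among the 12 lowest genes, Cst3 was the most abundant. Cst3 encodes cystatin C, a secreted protease inhibitor, and had 3422 CPM in Ctrl members and 563 in cKO members, a ratio of 0.164 (0.158 to 0.171), found in 215 and 322 cells. Its log2 ratio was -2.60 in the members, -1.71 in the high-score cells, -1.17 in Prlr-gated and -0.96 in basal cells, so it was lower in all of them and most in the members. Cck, the cholecystokinin gene, stood at 184 and 23.8 CPM in 152 and 67 members, at 40.4 and 8.99 CPM in the high-score cells and at 9.24 and 1.99 CPM in Prlr-gated cells. Among these gates it was highest in the Ctrl members. Ptgs2, which encodes the inducible cyclooxygenase, stood at 134 and 23.6 CPM. Its log2 ratios were -2.51 in the members and -2.03 to -2.26 in the high-score, Prlr-gated and basal cells. The difference was smaller in the middle cells, at 69.5 and 25.1 CPM, and in endothelial cells, at 111.9 and 74.6 CPM. Neat1, a nuclear long non-coding RNA, stood at 477 and 122 CPM, and at 1495 and 417 CPM in basal cells. Trim25, which encodes a ubiquitin ligase of antiviral signalling, stood at 31.2 and 8.40 CPM, with a log2 ratio of -1.89 in the members and -0.10 in basal cells. It was also lower in cKO in the high-score cells, at 30.9 and 10.1 CPM, and in Prlr-gated cells, at 30.2 and 16.2 CPM.

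Hp, the acute-phase haptoglobin gene, had 188 CPM in Ctrl members and 15.2 in cKO members, 78.0 and 35.1 CPM in the high-score cells and at 620 and 410 CPM in Prlr-gated cells. Of the 12 lowest genes, 7 stood higher in Prlr-gated than in member cells of Ctrl. Calca, the calcitonin gene, was the extreme case, with 1307 UMIs in 74 Ctrl members and 0 in cKO, at least 436-fold lower against a floor of 3 counts, and with 3333 and 0.970 CPM in Prlr-gated cells. One member held 31.98% of the Ctrl UMIs of Calca. Plac8 and Gpx3 had the same order, with 1566 and 1997 CPM in Prlr-gated Ctrl cells. Apod and Dcn rest on few cells, since 1 cell held 39.6% and 54.3% of their Ctrl UMIs, and among members without a Prlr UMI the log2 ratio of Dcn turned from -1.79 to 0.33. Angptl4 stood at 53.0 and 11.3 CPM. The part of RNA from Prlr-gated cells in these ratios was not tested either.

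The 4 state genes of the score had levels within 1.5-fold of each other between the libraries in the members, which is fixed in part because they chose the members within each library. Ceacam1 had a ratio of 1.36 (1.30 to 1.41), Aldh1a3 of 1.19 (1.16 to 1.22), Car2 of 1.123 (1.06 to 1.19) and Csn3 of 0.776 (0.753 to 0.799). Away from this end Csn3 differed more, at 916 and 447 CPM in the middle cells and 305 and 115 CPM in the high-score cells, the latter a log2 ratio of -1.41. Wnt5b and Plet1 had ratios of 0.809 (0.749 to 0.874) and 0.858 (0.844 to 0.873). The other genes of that side differed more, with Fam107b at 1.62 (1.54 to 1.70) and Trf at 0.368 (0.357 to 0.378). Trf had log2 ratios of -1.44 in the members, -2.12 in the high-score cells, -1.74 in Prlr-gated and -2.17 in basal cells. In endothelial cells Trf was not lower in cKO, at 35.6 CPM in Ctrl and 44.7 in cKO. As the score ranks cells within each library, it does not remove such differences.

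Milk genes were lower in cKO members. Of 13 tested, 2 were higher and 8 lower, and the list's median was -1.29 on the log2 scale, and 8 were also lower with trimmed mean scaling. Most tested genes of the list were lower in the high-score cells too, with 9 of 14 lower and a median of -1.16. Of all tested genes there, 13.2% were lower and their median was -0.09. The summed list was higher in cKO there, at 9919 and 11266 CPM, with Wfdc18 at 5396 and 9105 CPM of it. In the members the summed list was lower, at 8584 and 6244 CPM. Of the 8 lower in the members, 2 rest on a single Ctrl cell each, which held all Ctrl UMIs of Csn2 and of Csn1s2a, and 6 do not. For Csn1s1, at 51 UMIs and 1, 1 cell held 37.3% of the Ctrl UMIs. Mfge8 had log2 ratios of -1.29 in the members, -0.89 in the high-score cells, -1.51 in Prlr-gated and -1.78 in basal cells, and Spp1 was lower at 394 and 211 CPM. Against these, the gate gene Wfdc18, which encodes a whey acidic protein family member, was higher at 1419 and 2539 CPM. Of 12 luminal progenitor genes, 1 was higher (Wfdc18) and 5 lower, or 4 with trimmed mean scaling, with a median of -0.50. They included Rspo1, at 17.7 and 5.90 CPM, Tspan8, at 59.1 and 23.2 CPM, and Lbp, at 112.1 and 63.3 CPM.

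Chemokine and cytokine genes were higher in cKO members, with 7 of 16 higher, 2 lower and a list median of 0.46 on the log2 scale, or 8 higher with trimmed mean scaling. In 4 of the 7, 1 cKO cell held most of the UMIs, 92.1% of Il33, 76.9% of Ccl20, 61.9% of Ccl2 and 53.1% of Cxcl10, which leaves 3, Cxcl1, Cxcl2 and Tnf. Cxcl1 had a ratio of 2.16 (2.08 to 2.24), Cxcl2 of 1.96 (1.85 to 2.07), and Il33, an alarmin gene, had 2 UMIs in 1 member and 63 UMIs in 6 members. Tnf stood at 81.8 and 153 CPM, whereas Cxcl5 was lower, at 92.6 and 32.7 CPM. Of the same list, 12 of 18 were higher in the high-score cells, 11 of 19 in Prlr-gated and 12 of 19 in basal cells. Of all tested genes in those gates, 7.58%, 13.5% and 9.6% were higher. In endothelial cells the summed list was lower in cKO, at 6807 CPM in Ctrl and 4397 in cKO. Interferon-stimulated genes had 2 of 12 higher and 1 lower in the members, with a median of 0.25, while 13 of 16 were higher in the high-score cells, with a median of 1.25. Isg15 stood at 22.0 and 26.98 CPM in the members and at 23.0 and 87.1 CPM in the high-score cells. That difference between the ends of the score was not tested.

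Keratin genes had 3 of 10 higher in cKO, Krt6a, Krt7 and Krt23, and 2 lower, Krt14 and Krt19, or 5 higher with trimmed mean scaling. Krt18, on which the gate rests, had 26481 and 39559 CPM, with a log2 ratio of 0.58 in the members, 0.22 in the high-score cells and 0.17 in Prlr-gated cells. Krt8, the partner of keratin 18 and the source of the Cre promoter, had 9351 and 7843 CPM, or -0.25 as a log2 ratio. Krt14 stood at 127.5 and 51.8 CPM, but the median member had 0, 1 cell held 38.5% and 32.4% of its UMIs, and the 5% of members with the most held 86.4% and 86.2%. Krt19 stood at 1310 and 760 CPM. Of 10 EGF family genes 1 was higher, Areg, and 6 lower, or 4 with trimmed mean scaling, while the summed level of the list was higher in cKO, at 586 and 881 CPM. Areg stood at 168 and 469 CPM, against 2501 and 4575 CPM in Prlr-gated cells, and Erbb3 at 30.6 and 14.3 CPM. Of 23 lineage transcription factors 1 was higher and 6 lower, or 4 lower with trimmed mean scaling, beside 5.8% and 16.5% of all tested genes. Hey1, a Notch target, had 38 and 9 UMIs and Sox4 stood at 461 and 303 CPM. In Id4, 1 of the 6, 1 cell held 76.5% of the Ctrl UMIs. Innate defence genes went both ways, with 4 of 13 higher and 6 lower. In 4 of the 6, Saa1, Saa3, Reg3g and Wfdc12, 1 Ctrl cell held most of the UMIs, and Saa1, an acute-phase gene, had 139 UMIs in 3 Ctrl members and 0 in cKO. Fgb, at 66.95 and 227 CPM, rests on the few members described above.

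Ccnd1, which encodes cyclin D1 and carries the miR-141 seed match printed above, had 65.0 CPM (58.5 to 72.0) in Ctrl members and 95.95 (88.0 to 104.4) in cKO members. The ratio of 1.48 (1.29 to 1.69), a log2 ratio of 0.56, is just below 1.5-fold, and trimmed mean scaling puts it just above. The high-score cells held 104.9 and 216.1 CPM of Ccnd1, which is 1.04 as a log2 ratio. Prlr-gated cells held 90.9 and 98.9 CPM (0.12) and basal cells 32.5 and 37.1 CPM (0.19). Thinned to 2000 UMIs, 12.9% of Ctrl (8.75 to 18.1) and 13.9% of cKO members (10.5 to 17.9) held a Ccnd1 UMI, intervals that overlap, against 17.0% and 28.7% in the high-score cells and 5.36% and 4.59% of basal cells. Without thinning the member shares were 55.7% and 47.0%. Ccnd1 was lowest at the member end in both libraries, and in the lowest score bin it stood at 62.7 and 72.3 CPM. Whether the ratio differs between the ends of the score was not tested.

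Other reported targets of the family showed no common direction in the members. Of 8 tested, 0 were higher and 1 lower, and their median was -0.02 on the log2 scale, or 1 higher, Ccnd1, with trimmed mean scaling. Msn, which encodes the membrane linker moesin, stood at 272 and 338 CPM, Cfl2, which encodes a cofilin, at 137.5 and 130.1 CPM, and Ets1 at 151 and 160 CPM. Of 10 targets tested along the score, these 3 were higher at the member end. Another 4 were lower there, Ccnd1, Jag1, Fn1 and Zeb1, or 3 with trimmed mean scaling. The list's median log2 difference along the score was -0.285 in Ctrl and -0.557 in cKO. Zeb1 and Zeb2 encode the repressors best known as targets. Zeb1 had 13 UMIs in Ctrl and 2 in cKO members, and Zeb2 3 and 5, both below the 20 UMIs asked for. The lower target was Jag1, at 24 and 14 UMIs.

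Estrogen and progesterone receptor genes stood far lower in the members than in Prlr-gated cells in both libraries. Esr1 had 17 and 15 UMIs, 3.04 CPM (1.77 to 4.87) and 2.68 CPM (1.5 to 4.42), against 36.8 and 38.1 CPM in Prlr-gated and 2.21 and 2.91 CPM in basal cells. At 2000 UMIs a cell, 0 of 217 Ctrl members held an Esr1 UMI, which allows a share of up to 1.38% with a UMI at that depth and limits no share of cells that express the gene, and 1 of 367 cKO members did (0.272%), against 0.195% and 0.748% of basal cells. Without thinning, 16 Ctrl members (7.31%) and 13 cKO members (3.53%) held one, against 2.66% and 2.28% of the shallower basal cells. Pgr stood at 6.98 CPM (4.97 to 9.54) and 7.15 CPM (5.11 to 9.73), against 84.0 and 86.0 CPM in Prlr-gated cells and 2.92 and 4.30 CPM in basal cells, both below the members' intervals. It was found in 17 and 23 members, and 1 cell held 20.5% of its Ctrl UMIs. Its thinned shares were 2.76% (1.02 to 5.92) and 1.09% (0.298 to 2.77), against 0.682% and 0.641% of basal cells, so that the Ctrl interval lies above the basal share and the cKO interval holds it. The ratio was 0.881 for Esr1 (0.410 to 1.88) and 1.02 for Pgr (0.642 to 1.63), so a change of up to about these bounds was not detectable at this depth.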

How the data were processed

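Single mammary cells were profiled with 10x Chromium 3′ chemistry (version 2, per the labels' protocols), 1 library per group. The deposited matrices hold UMI counts per gene and cell barcode, aligned to mm10 with Cell Ranger 2 per the submitters' processing notes, while the file headers name software version 3.0.0. They are already limited to cell barcodes. Of 4237 and 6257 barcodes, 3416 and 5493 with at least 500 genes and at most 10% mitochondrial UMIs were kept. Totals were 95520633 UMIs in Ctrl and 103668011 in cKO. Cell classes were set by the gates given in the text, with Krt5 and Krt14 of at least 20 per 10000 for basal cells. The members, the gene lists and the tests were chosen with earlier results of these data known.

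Counts were summed over cells and given as CPM with exact Poisson intervals (scipy 1.17.1), and ratios with exact conditional binomial intervals. A gene was called at 1.5-fold with at least 20 UMIs in the 2 sums, and a sum of 0 was set to 3 counts. Genes were named as the 12 highest and 12 lowest ratios with at least 100 UMIs and a UMI in at least 5% of cells, besides the gate, score and marker genes. Other genes of the lists are given as examples chosen after their values were seen. Alternatives covered trimmed mean scaling (edgeR 4.0.16), other filters and gates, thinned scores and Scrublet calls (scanpy 1.11.5). The ratio and interval code was tested on simulated data. Sequences came from RefSeq tables (GRCm38.p6) and the GENCODE annotation of GRCm38, and motifs were matched as letters. Values of some list genes are not reported here.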

Additional observations from a re-analysis of the deposited data

Results flagged for a closer look

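Some genes went opposite ways along the score in the 2 libraries, by at least 1.5-fold each way. None of these differences was tested. Hp was higher at the member end in Ctrl (log2 1.27, members over high-score cells) and lower in cKO (-1.21). Reg3g, an antimicrobial lectin gene, had 3.28 and -0.94, but 1 cell held 91.7% of its 48 UMIs in the Ctrl members. In the other direction, Acta2 had -0.60 in Ctrl and 1.40 in cKO, Cdkn1c, a kinase inhibitor gene, -1.42 and 1.24, Fst -1.87 and 0.96, and Gipc2 -0.76 and 0.67. In the cKO members 1 cell held 73.4% of the Acta2 UMIs and 31.7% of those of Cdkn1c, and in the Ctrl members 1 cell held 51.4% of those of Fst.

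Others differed between the libraries one way in the members and the other way in the high-score cells, again untested. The log2 ratio of cKO over Ctrl was 0.63 in the members and -0.86 in the high-score cells for Klk10, a score gene. Klk10 had 58 and 90 UMIs in the members, 46.6% and 33.3% of them in 1 cell. The ratio was -1.25 and 0.78 for Myh11, a smooth-muscle gene with 19 and 8 UMIs in the members, 57.9% and 62.5% of them in 1 cell. It was -0.59 and 3.63 for Reg3g, whose Ctrl member value is mostly the 1 cell described above. For Stat2, an interferon signalling gene with only 18 and 11 UMIs in the members, it was -0.71 and 0.89.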

How the results depend on the processing

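No paired analysis was possible because each group is 1 library, and no replicate could be left out for the same reason. Trimmed mean scaling gave 875 genes higher in cKO members and a median log2 ratio of -0.001, and 651 genes higher at the member end. With at least 100 UMIs the counts were 205 higher and 736 lower in cKO, with a median of -0.108, and 731 lower at the member end. With at least 1 UMI they were 2171 and 3785, with a median of -0.096, and 854 higher and 2124 lower at the member end. Fewer or more genes tested set those counts. Members without a Prlr UMI gave a median of -0.143. The other 50 summary values moved by less than 1.5 times or within their error.

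Of the values of single genes under the alternatives, 1587 kept within their interval, 398 moved beyond it and 15 reversed. The cause of the reversals was not tested. The log2 cKO over Ctrl ratio of Atp10b became 0.447 as a mean over cells, 0.235 without Prlr UMIs and 0.052 among members up to 2 times the median depth. That of Dcn became 0.328 and 0.673 under the last 2, and that of Zeb2 -1.590 without its 3 richest cells. Without Prlr UMIs the members over high-score cells difference became 0.207 for Gipc2, -0.015 for Ido1 and -0.60 for Upk3a in Ctrl, and -0.185 for Plac8 and -0.162 for Ptn in cKO. With the lowest and highest 1 in 4 cells in place of 1 in 3, Pgr became -0.233 in Ctrl. With the score from thinned cells Fam25c became -0.064 in Ctrl, and Fst -0.512 and Ptn -0.004 in cKO.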

Other observations

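Immediate early and heat shock genes, which respond to stimulation and to handling of cells, went apart between the libraries. Of 17, 4 were higher in cKO members, Junb, Atf3, Ier2 and Ier3, and 3 lower, Hspa1a, Hspa1b and Hsph1, or 5 and 3 with trimmed mean scaling. The list's median was -0.11 on the log2 scale and 0.01 with that scaling, so the list as a whole has no direction. Atf3, which encodes a stress transcription factor, had 277 CPM in Ctrl members and 625 in cKO members, and Junb 791 and 1348 CPM. Hspa1a, which encodes an inducible heat shock protein, had 753 and 332 CPM. Hspa1a and Hspa1b are near-identical copies, so their reads may be split between them. Along the score 0 of 17 were higher and 1 lower, Egr1.

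Ion and water transport genes had 0 of 10 higher and 3 lower in cKO members, Atp1b1, Slc4a4 and Slc4a7, with a median of -0.09 that turned to 0.04 under trimmed mean scaling. Of all tested genes, 5.8% were higher and 16.5% lower in cKO members. Atp1b1, which encodes a sodium pump subunit, had 114 and 58.1 CPM. Aqp3, which encodes a water and glycerol channel, was the 1 gene of the list higher at the member end, at 211 and 264 CPM against 110.5 and 131.4 CPM in the high-score cells. Slc34a2 and Atp1b1 were lower there.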
